A study of Mus musculus with 6 samples.

Results

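The transcripts of 10 genes of JAK, STAT and SOCS signalling were followed in mouse multiple myeloma cells with and without insulin-like growth factor 1 (IGF-1). They were Jak1, Jak2, Tyk2, Stat3, Stat5a, Stat5b, Socs1, Socs2, Socs3 and Cish, and every probe set that the platform annotation gave to 1 of these symbols alone was taken. This gave 20 of the 22690 probe sets of the array. The cells, which the labels call malignant plasma cells with bone marrow as their source, were kept for 12 h in serum-free medium, either without IGF-1 (control, 3 arrays) or with 100 ng/ml IGF-1 (3 arrays). Serum withdrawal was thus common to both groups. The labels name neither a cell line nor a number of animals, and do not state that replicates were separate cultures, so p-values cover the spread between these arrays, which may be technical.

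JAK kinases sit on the inner side of cytokine receptors, which have no kinase domain of their own. A bound cytokine brings receptor chains together, the JAKs phosphorylate each other and the receptor, and STAT proteins that dock there are phosphorylated, pair up and enter the nucleus. SOCS proteins and CIS, the product of Cish, are made in response to STATs and shut the same receptors off. In myeloma, interleukin-6 signals to STAT3 through gp130, the product of Il6st. The arrays measure transcript levels and not phosphorylation, so they do not report whether a JAK or a STAT was active.

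Values are MAS5 signals on a linear scale, 1 per probe set and array. The arrays had 1 common trimmed mean of 150.1 and medians between 49.96 and 55.4. Tests were made with limma on log2(signal + 15.57) for the 11313 probe sets whose mean signal passed 53.61, with Benjamini-Hochberg adjustment over all of them and a threshold of 0.05. Of these, 15.1% passed, 6.82% higher and 8.28% lower with IGF-1. Plasma cell markers were bright, with mean signals of 4635 for Xbp1, 4377 for Jchain and 895 for Sdc1, and 9 of 10 measured markers lay above the filter. All 5 measured B cell markers and 6 of 7 T and NK cell markers lay below it, while all 11 measured neutrophil markers and 8 of 11 macrophage and monocyte markers lay above it. Mean signals of neutrophil markers ran from 238 (Prtn3) to 6872 (S100a9), which is brighter than Xbp1. Those of macrophage and monocyte markers ran from 7.09 (Marco) to 3828 (Lyz2). When the arrays were scaled to the 18 hybridization control probe sets instead, the median log2 difference of all tested probe sets moved from -0.01 to 0.25, and the calls moved from 772 higher and 937 lower to 2740 higher and 246 lower. Directions below are therefore relative to the bulk of transcripts.

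Transcripts of 2 of the 3 JAK kinases fell with IGF-1, no STAT transcript passed the test, nor did Cish, and the SOCS transcripts were too dim to be tested. Both Jak2 probe sets and the brightest of the 3 Jak1 probe sets were lower by 1.45 to 1.48-fold. Of the 20 probe sets 14 were bright enough to be tested, and of these 0 rose, 3 fell and 11 did not pass by limma. At an unadjusted p under 0.05, 0 were higher and 5 lower, which is 35.7% against 30.5% of all tested probe sets (13.8% higher and 16.7% lower). Without control 2 only 1 fell. At 3 of 14, the lower calls compare with 8.28% of all tested probe sets, but 2 of the 3 are of the same gene, Jak2. By the brightest probe set 2 of 7 tested genes were lower, against 8.05% of all tested genes. The 6 probe sets below the filter were those of Socs1, Socs2 and Socs3. By sign alone 15 of the 20 were lower and 5 higher, with a median log2 difference of -0.13 against -0.00027 for all probe sets without a filter. With scaling to the hybridization controls 6 were negative and 14 positive, and 16 of the 20 lay below the shifted median.

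**Figure D1:**
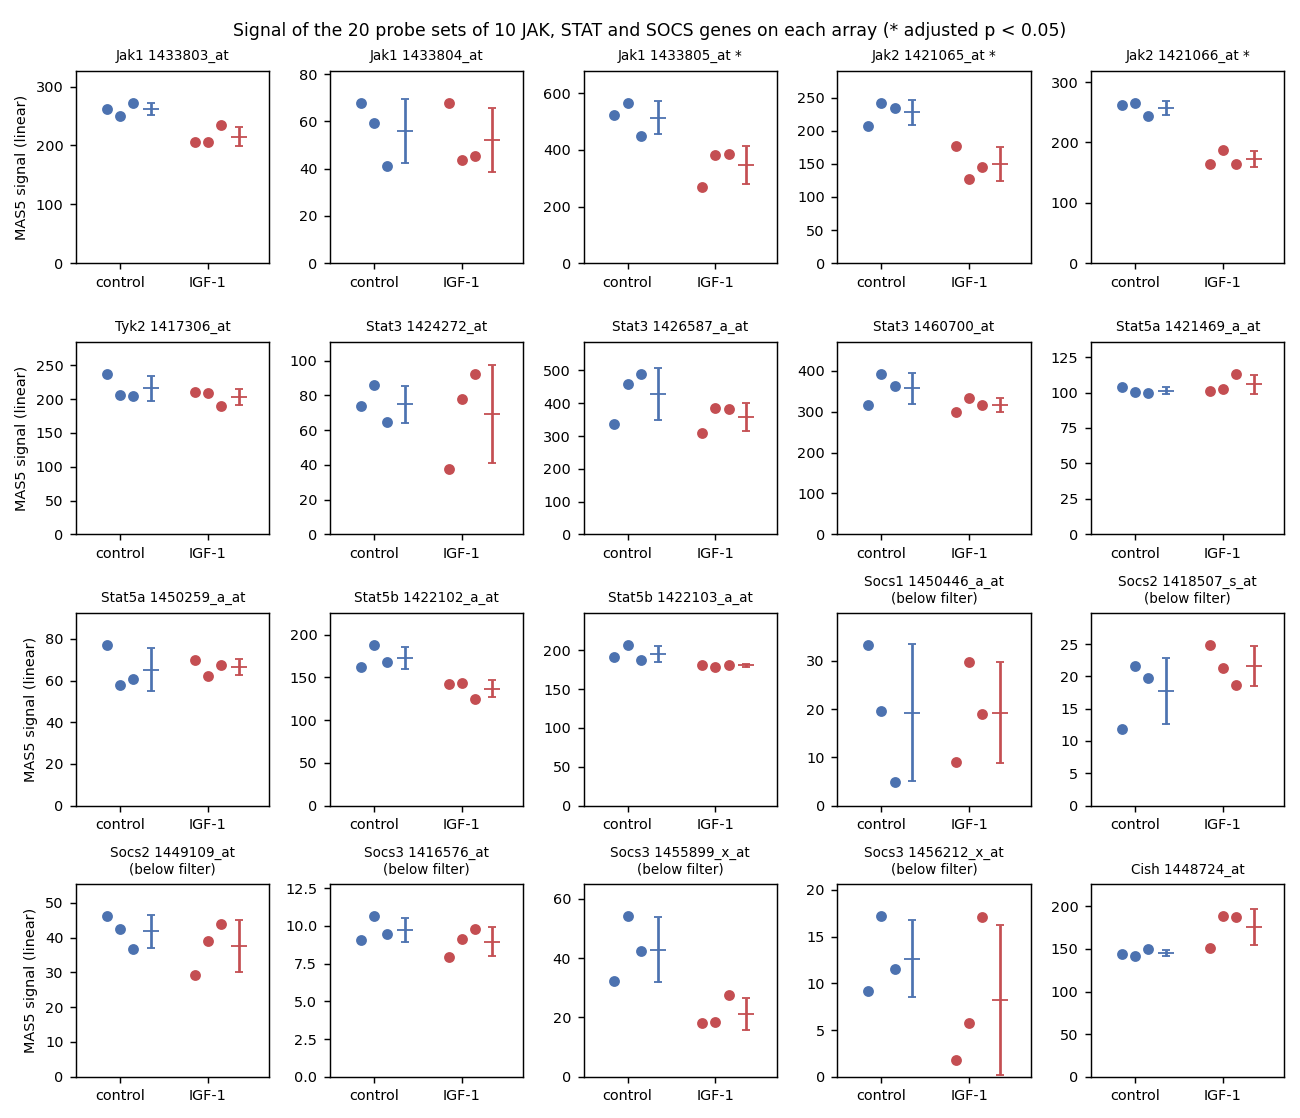
MAS5 signal (linear axis from 0) of each of the 20 probe sets on the 3 control arrays (blue, replicates 1 to 3 from left to right) and the 3 IGF-1 arrays (red), with bars for mean ± SD. Asterisks mark the 3 probe sets past the threshold, and in all 3 every IGF-1 array lies below every control array.

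Jak2 serves receptors for erythropoietin, growth hormone, prolactin, interleukin-3 and interferon gamma. Its brighter probe set, 1421066_at, read 262, 266 and 244 on control arrays and 165, 188 and 165 on IGF-1 arrays. The groups did not overlap, and the means were 257 ± 11.5 and 173 ± 13.6 (SD, n = 3). The log2 difference was -0.54 ± 0.10 (SE, limma adjusted p = 0.0082), with a 95% interval from -0.77 to -0.31. The second probe set, 1421065_at, read 207, 242 and 234 without IGF-1 and 177, 127 and 145 with it. Here too all IGF-1 arrays were below all control arrays (log2 difference -0.57 ± 0.13, limma adjusted p = 0.018). The call of 1421066_at held with each array left out (adjusted p 0.0171 to 0.0341), but that of 1421065_at did not pass once any of control 2, control 3, IGF-1 2 and IGF-1 3 was taken out (adjusted p up to 0.0681).

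Jak1, which pairs with most cytokine receptors and is the main kinase at gp130, was measured by 3 probe sets that did not give the same size of difference. The brightest, 1433805_at, read 525, 567 and 449.9 on control arrays and 269.9, 384 and 385 on IGF-1 arrays. The groups were apart, IGF-1 1 was the lowest array, and the log2 difference was -0.56 ± 0.14 (limma adjusted p = 0.028). Taking out control 1, control 2 or IGF-1 1 ended this call (adjusted p up to 0.102). Probe set 1433803_at read 263, 251 and 273 without and 205, 206 and 234 with IGF-1. Its groups were apart as well, with a smaller difference, and it did not pass (-0.27 ± 0.10, limma adjusted p = 0.10, 95% interval from -0.49 to -0.04). The dimmest, 1433804_at, with a mean signal of 54.2, lay just above the filter and overlapped between the groups (-0.08 ± 0.20, limma adjusted p = 0.83).

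Tyk2 works beside Jak1 at type I interferon and interleukin-10 family receptors, and it also serves the interleukin-12 receptor. Its probe set read 237, 206 and 205 on control arrays and 210.1, 209 and 189.8 on IGF-1 arrays. The groups overlapped, and the log2 difference of -0.08 ± 0.11 did not pass (limma adjusted p = 0.65). Its 95% interval ran from -0.32 to 0.15, which does not reach the estimates for Jak2 or for the brightest Jak1 probe set but overlaps their intervals, and the difference between these genes was not tested. Under scaling to the hybridization controls all 3 calls of Jak1 and Jak2 were lost (log2 differences of -0.28 for 1433805_at, -0.30 for 1421065_at and -0.27 for 1421066_at, limma adjusted p 0.179 to 0.181), while the 3 stayed -0.53, -0.55 and -0.52 from the shifted median. In the fit without a filter 1421066_at passed, but 1433805_at and 1421065_at did not (limma adjusted p 0.0825 and 0.0534).

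**Figure D2:**
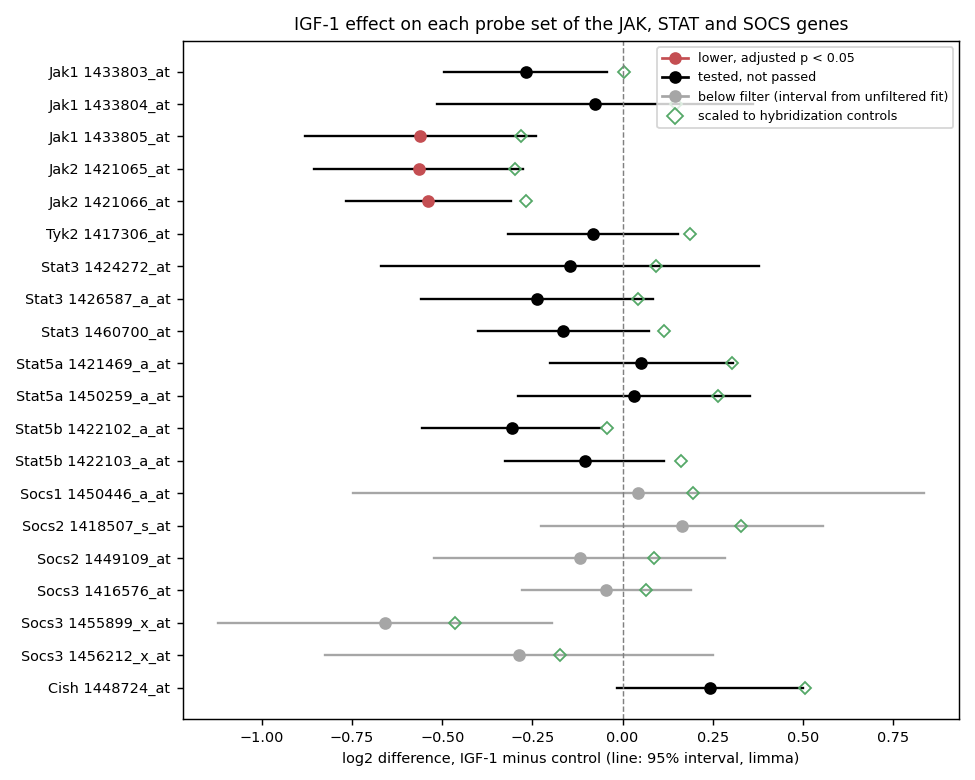
Log2 difference (IGF-1 minus control, points) of each probe set with its 95% interval from limma (lines), red where the adjusted p passed, black where it did not, grey for the 6 probe sets below the filter, whose intervals come from the fit without a filter. Green diamonds give the difference after scaling to the hybridization controls, where Jak1 1433805_at and both Jak2 probe sets stay below 0 and most others move above it.

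The promoters of Jak1 and Jak2 are shown because these were the members with a probe set past the threshold. Those of Socs3 and Cish are shown because theirs were the ones among the windows searched to hold a STAT-type motif. The RefSeq table had 11 windows for 9 of the genes, with 2 each for Stat5a and Stat5b, and Socs2 was not searched. Each window runs from 250 bases before to 50 after a gene start. The motif searched was TTCNNNGAA, which reads the same on both strands, together with the form that has 1 more base between the arms. The first was in 2 of the 11 windows and in 8.30% of all 32851 windows, the second in 0 of the 11 and in 6.95% of all. Capitals mark matches, of which Socs3 held 1 (TTCTTAGAA, from base 97 of the window) and Cish held 2 (TTCCTGGAA from base 251 and TTCTTGGAA from base 262). The windows of Jak1 and Jak2 held neither form. A match is a description of letters and not of binding. The sequences, 5′ to 3′, are
Jak1, GRCm38.p6 chr4:101265174-101265473, minus strand: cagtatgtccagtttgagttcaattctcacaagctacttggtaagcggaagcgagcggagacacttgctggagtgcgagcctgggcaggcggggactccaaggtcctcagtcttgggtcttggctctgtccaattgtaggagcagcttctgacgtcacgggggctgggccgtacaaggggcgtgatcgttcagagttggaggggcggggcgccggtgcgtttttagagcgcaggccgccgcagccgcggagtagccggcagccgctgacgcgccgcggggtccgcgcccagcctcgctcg
Jak2, GRCm38.p6 chr19:29251553-29251852, plus strand: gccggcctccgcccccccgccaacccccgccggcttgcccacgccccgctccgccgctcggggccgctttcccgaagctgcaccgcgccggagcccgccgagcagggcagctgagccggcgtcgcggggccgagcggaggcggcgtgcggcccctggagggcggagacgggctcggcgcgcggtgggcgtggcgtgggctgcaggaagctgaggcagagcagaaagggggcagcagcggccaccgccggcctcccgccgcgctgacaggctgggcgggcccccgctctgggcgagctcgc
Socs3, GRCm38.p6 chr11:117969317-117969616, minus strand: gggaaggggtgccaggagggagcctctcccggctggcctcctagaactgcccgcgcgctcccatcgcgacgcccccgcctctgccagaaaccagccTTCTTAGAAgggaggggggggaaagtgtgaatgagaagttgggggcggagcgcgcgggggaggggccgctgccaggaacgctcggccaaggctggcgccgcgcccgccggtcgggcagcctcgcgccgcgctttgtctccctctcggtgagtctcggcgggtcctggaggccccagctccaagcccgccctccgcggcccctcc
Cish, GRCm38.p6 chr9:107296409-107296708, plus strand: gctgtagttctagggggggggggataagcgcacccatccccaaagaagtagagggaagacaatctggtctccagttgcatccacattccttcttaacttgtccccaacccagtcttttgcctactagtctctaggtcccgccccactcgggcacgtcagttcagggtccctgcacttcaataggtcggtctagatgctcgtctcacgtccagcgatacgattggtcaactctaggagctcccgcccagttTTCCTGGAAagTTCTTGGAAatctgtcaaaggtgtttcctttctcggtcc

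Cish, a negative regulator that STAT5 is known to induce, was the 1 inhibitor above the filter. It read 145, 142 and 149.5 on control arrays and 150.9, 188 and 187 on IGF-1 arrays. The groups did not overlap, by a narrow margin, since IGF-1 1 lay close to control 3. The log2 difference of 0.24 ± 0.12 did not pass (limma adjusted p = 0.19, 95% interval from -0.02 to 0.50). It was the 1 member to pass in the upward direction under another setting, at 0.51 with scaling to the hybridization controls (limma adjusted p = 0.024), which is 0.25 above the shifted median.

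Socs3, the inhibitor that binds gp130 and JAKs and that STAT3 induces, was dim on all 3 of its probe sets. The brightest, 1455899_x_at, read 32.1, 54.1 and 42.4 without IGF-1 and 18.05, 18.3 and 27.4 with it. Its groups were apart, with a log2 difference of -0.66, the lowest of the 20, but its mean signal stood at percentile 38.3 of all probe sets, below the filter. Without a filter it did not pass (limma adjusted p = 0.12), and its size depended on the pseudocount, at -0.97 with 1 and -0.36 with the median signal. The suffix _x marks probes that can bind other transcripts. Probe set 1456212_x_at read 9.17, 17.2 and 11.6 against 1.76, 5.73 and 17.1, and 1416576_at read 9.09, 10.6 and 9.46 against 7.94, 9.11 and 9.80. Both overlapped between groups (log2 differences -0.29 and -0.05).

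Socs1, which blocks JAK kinase activity, and Socs2, which restrains growth hormone signalling, were also below the filter. Socs1 read 33.3, 19.5 and 4.97 on control arrays and 8.94, 29.8 and 19.1 on IGF-1 arrays, a spread within each group that covers the other. The 2 Socs2 probe sets had opposite signs, -0.12 for 1449109_at (46.1, 42.5 and 36.7 against 29.3, 39.0 and 44.0) and 0.17 for 1418507_s_at (11.9, 21.6 and 19.8 against 24.8, 21.3 and 18.6). Groups overlapped for both. In the fit without a filter the 95% interval of Socs1 ran from -0.75 to 0.84, so a change of either sign was not detectable at this signal.

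Among the STAT factors 0 of 7 probe sets passed by limma, and 1 had an unadjusted p under 0.05, against 30.5% of all tested probe sets. The median log2 difference was -0.15, with 5 below 0 and 2 above. With scaling to the hybridization controls 6 were above 0, as was the median of all tested probe sets, and 5 of the 7 lay below that shifted median. Stat3, which carries interleukin-6 signals, was measured by 3 probe sets that were all lower in the mean. The brightest, 1426587_a_at, read 337, 458 and 489 on control arrays and 309, 385 and 381 on IGF-1 arrays. Control 1 lay within the IGF-1 range, and the difference of -0.24 ± 0.15 did not pass (limma adjusted p = 0.31). Probe set 1460700_at read 317, 392 and 362 against 299.7, 333 and 315 and overlapped too (-0.16 ± 0.11, limma adjusted p = 0.34). The dimmer 1424272_at read 74.2, 86.0 and 64.8 against 37.9, 78.2 and 92.4, the widest spread of the STAT probe sets (-0.15 ± 0.24).

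Stat5a and Stat5b, neighbouring genes on mouse chromosome 11 with Stat3 next to Stat5a, encode closely related factors downstream of Jak2. The Stat5b probe set 1422102_a_at read 163, 188 and 168 on control arrays and 142, 143 and 125 on IGF-1 arrays. The groups were apart, but the difference of -0.31 ± 0.11 did not pass (limma adjusted p = 0.093, 95% interval from -0.55 to -0.06). The other, 1422103_a_at, read 192, 207 and 188 against 182, 179 and 181, apart as well, with a difference of -0.11 ± 0.10 (limma adjusted p = 0.52). For Stat5a the groups overlapped on both probe sets. These read 104, 100.3 and 99.5 against 101, 103 and 113 for 1421469_a_at (0.05 ± 0.11) and 77.0, 57.8 and 60.9 against 69.9, 62.3 and 67.7 for 1450259_a_at (0.03 ± 0.15). Probe sets of Stat5a and Stat5b can share sequence, since the genes are close copies, so a split of signal between them is uncertain. Groups did not overlap for 7 of the 14 tested probe sets, 6 of them lower and 1 higher, where 34.8% of all tested probe sets did so (18.7% lower, 16.1% higher). Over all 20 it was 8, against 24.1% of all probe sets without a filter (12.9% lower, 11.1% higher).

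The genes around the members were taken from lists of receptors, ligands, inhibitors and targets. Of 94 such genes 85 had a named probe set and 60 were tested, each by its brightest tested probe set. Of these 6 rose and 8 fell, 23.3% against 15.1% of the 6895 genes tested (7.05% higher and 8.05% lower). With scaling to the hybridization controls 16 rose and 7 fell, and the median of every such list was above 0, as was that of all tested probe sets (0.25). Without a filter Pias3, Ptprc and Pim3 did not pass (limma adjusted p 0.051 to 0.0673). The ligand Il11, below the filter at percentile 23.9 and named after its values were seen, passed there (limma adjusted p = 0.0276). It read 4.77, 7.47 and 6.07 on control arrays and 16.7, 29.9 and 26.7 on IGF-1 arrays.

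Of 15 tested receptors that use JAKs 0 rose, 2 fell and 13 did not pass, with a median of -0.04 against -0.01 for all genes. The share called was 13.3%, near the 15.1% of all tested genes. These counts go by the brightest probe set. For Ifngr2, a chain of the interferon gamma receptor, it gave 0.04 and did not pass, but 1 of its 2 tested probe sets was called higher. Il6st read 193, 207 and 206 on control arrays and 123, 131 and 105 on IGF-1 arrays. The log2 difference was -0.69 ± 0.11 (limma adjusted p = 0.0042), all 3 of its probe sets passed, and the call held with each array left out (highest adjusted p 0.0206). Il6ra, the chain that binds interleukin-6, overlapped between groups (0.13 ± 0.18, limma adjusted p = 0.66). Csf3r, the receptor for granulocyte colony-stimulating factor and a neutrophil marker, fell by 0.66 ± 0.14 on the log2 scale (limma adjusted p = 0.012), a call lost with scaling to the hybridization controls (adjusted p 0.0949). Of 4 tested ligands 1 fell, Il15, from 143 ± 30.7 to 73.1 ± 7.70 (-0.82 ± 0.16, limma adjusted p = 0.0086), and 13 ligands, Il6 among them, lay below the filter.

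Among 10 tested PIAS genes and phosphatases, 2 rose, 1 fell and 7 did not pass, so 30% were called against 15.1% of all tested genes. The 2 that rose encode PIAS proteins, SUMO ligases that hold STATs back. Pias3, named for its binding to STAT3, read 88.3, 84.1 and 89.5 without and 129.7, 154 and 120.2 with IGF-1 (0.54 ± 0.12, limma adjusted p = 0.018, both probe sets passed). Pias4 read 359, 369.8 and 367 against 447, 509.8 and 507 (0.40 ± 0.09, limma adjusted p = 0.019). In both genes all IGF-1 arrays were above all control arrays, but taking out control 2 or IGF-1 2 ended both calls, and taking out IGF-1 3 that of Pias4 (adjusted p up to 0.0732 for Pias3 and 0.075 for Pias4). Ptprc, the leukocyte phosphatase CD45, which can dephosphorylate JAKs, fell from 678 ± 133 to 398 ± 70.4 (-0.74 ± 0.16, limma adjusted p = 0.013), a call lost without control 2 (adjusted p 0.0549). Of 7 tested SOCS box inhibitors and ubiquitin ligase partners and of 3 other JAK and STAT genes (Jak3, Stat2 and Stat6), 0 passed by limma, with 4 and 2 at an unadjusted p under 0.05, where 30.5% of all tested genes stood.

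**Figure D3:**
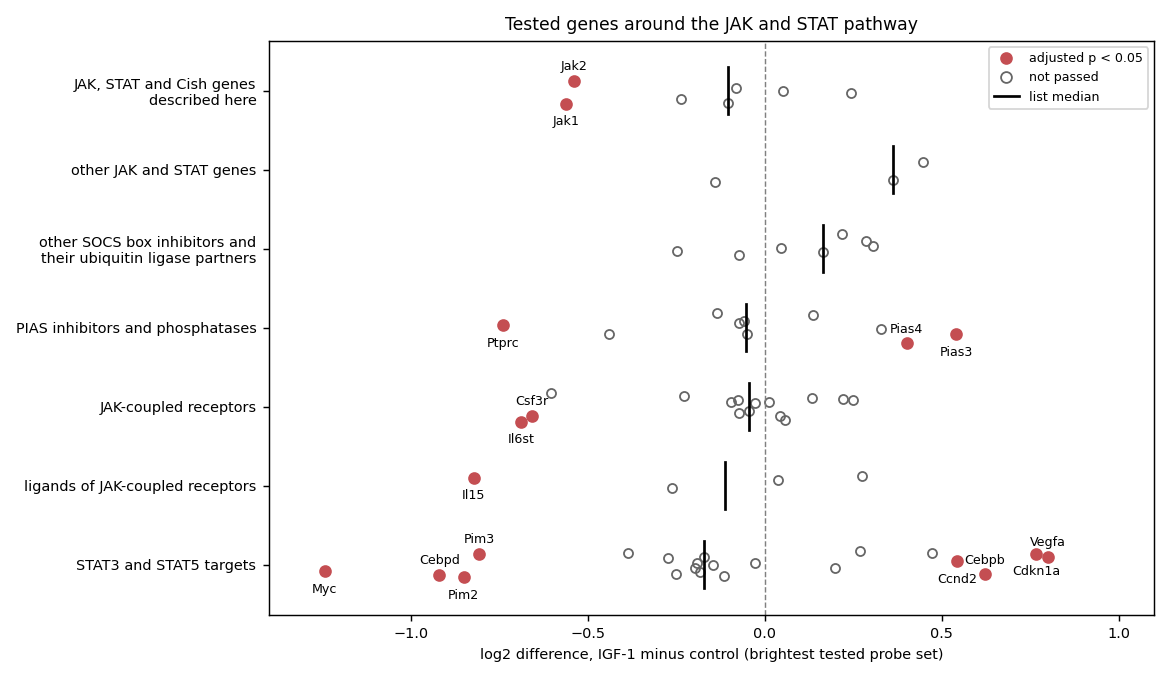
Log2 difference (IGF-1 minus control) of each tested gene by its brightest tested probe set, 1 row per list, with red points past the threshold and named, open points not, and a bar at each list's median. The 7 tested genes described here hold 2 calls, Jak1 and Jak2, both lower, and the targets of STAT3 and STAT5 have 4 calls on each side.

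Transcripts known as targets of STAT3 and STAT5 did not move one way. Of 21 tested 4 rose, 4 fell and 13 did not pass, with a median of -0.17. The share called was 38.1%, against 15.1% of all tested genes. Those that fell were Myc (-1.24 ± 0.11), Cebpd (-0.92 ± 0.17), Pim2 (-0.85 ± 0.13) and Pim3 (-0.81 ± 0.19), the last 2 survival kinases. The call of Pim3 ended when control 2, control 3, IGF-1 1 or IGF-1 3 was taken out (adjusted p up to 0.0603). Vegfa rose (0.80 ± 0.12), as did Cdkn1a (0.77), Cebpb (0.62) and Ccnd2 (0.54), of which the last 3 are named after their values were seen. Both probe sets of Cdkn1a passed, but 1 of 2 tested for Vegfa, 1 of 2 for Cebpb, 1 of 5 for Ccnd2 and, among those that fell, 1 of 2 for Pim3. Pim1 passed on 1 of its 2 probe sets, and the brighter gave -0.39 ± 0.14 (limma adjusted p = 0.083). Mcl1 and Bcl2l1, survival genes of the BCL2 family, did not pass (-0.20 ± 0.09 and -0.15 ± 0.11), and both were positive with scaling to the hybridization controls (0.09 and 0.13), yet below the shifted median of 0.25. The IGF-1 receptor transcript itself, Igf1r, fell by 0.58 ± 0.10 on the log2 scale (limma adjusted p = 0.005), but did not pass with scaling to the hybridization controls (adjusted p 0.129). These values are from the brighter of its 2 probe sets, and the other is not reported.

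Transcripts of other blood cells were lower in part alongside Jak1 and Jak2. JAKs, Il6st and Ptprc are expressed by many blood cells, and in bulk RNA fewer cells of a type and less RNA per cell cannot be told apart. Among neutrophil markers 3 of the 11 tested fell (Csf3r, Ltf and Mmp8), none rose, and 10 had a negative difference. The 3 stood at 62.4%, 65.4% and 59.8% of their control means, against 67.0% for Jak2 1421066_at. The summed signal of the 11 was 26331 to 31711 on control arrays and 24089 to 27036 on IGF-1 arrays, ranges that overlap. The brightest in that sum, S100a9, Ngp and S100a8, stood at 86.8%, 87.4% and 90.6%. Called were 27.3% of the tested neutrophil markers, 50% of macrophage and monocyte markers and 22.2% of plasma cell markers, against 15.1% of all tested genes. Of 8 tested macrophage and monocyte markers 3 fell and 1 rose, with a median log2 difference of -0.50. Over all 11 measured the median was -0.34, against -0.27 for the 11 neutrophil markers and -0.54 for Jak2 1421066_at. Csf1r, a growth factor receptor of macrophages, stood at 47.2% of its control mean, and Cd14, a lipopolysaccharide co-receptor, at 55.3%. Ccr2, a chemokine receptor of monocytes, stood at 56.8%. Each was a lower share than that of Jak2, while Cd68 rose to 134%. Of the tested probe sets, 1 of 3 for Csf1r and 1 of 2 for Ccr2 were called lower. The calls of Cd14, Ccr2 and, among neutrophil markers, Mmp8 each passed in 2 of the 6 fits with 1 array left out. The sums of the 11 measured were 5577 to 7402 and 4783 to 6597, which overlap too, but most of that signal was Lyz2 (mean 3828, log2 difference -0.34, not past the threshold). C1qa and Marco were near the bottom of the range with mean signals of 8.02 and 7.09. Of 9 tested plasma cell markers 2 fell and 0 rose, and the sums of the 10 measured, 13648 to 14773 and 12793 to 13301, did not overlap. The 2 were Slamf7, at 62.4% of its control mean, and Tnfrsf17, at 68.9%, against 67.0% for Jak2 1421066_at. Both calls held with each array left out. Irf4 and Xbp1 did not pass by their brightest probe sets, but 1 of 2 and 1 of 4 tested were called lower. By sign 8 of the 10 measured were lower and 2 higher. The brightest in the sum, Xbp1 and Jchain, stood at 87.2% and 97.0%. Jak2 1421066_at stood at 64.0 to 73.1% of the control mean on IGF-1 arrays, against 80.7 to 90.6% for the neutrophil sum, 71.4 to 98.4% for the macrophage sum and 90.8 to 94.4% for the plasma cell sum. The part of these cells in the Jak1 and Jak2 results was not tested.

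**Figure D4:**
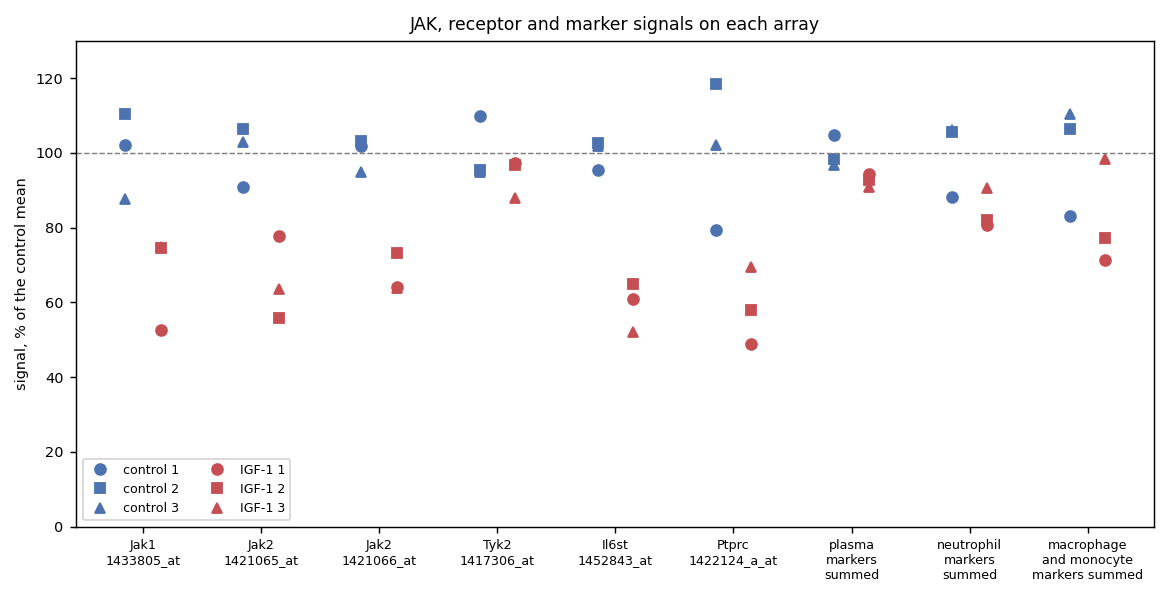
Signal on each array as a percentage of the control mean (axis from 0) for Jak1, Jak2, Tyk2, Il6st and Ptprc probe sets and for the summed signals of 3 marker lists, with control arrays in blue, IGF-1 arrays in red and the marker shape giving the replicate. IGF-1 arrays lie below all control arrays for Jak1, both Jak2 probe sets, Il6st, Ptprc and the plasma cell sum, and overlap control arrays for Tyk2 and the neutrophil and macrophage sums.

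The pattern of Jak2 1421066_at over the 6 arrays was compared with that of the other 6894 tested genes, as a description. The nearest were Mis18a, a centromere factor, Selenot, a selenoprotein of the endoplasmic reticulum, and Ctdsp2, a phosphatase (Pearson r of log2 values of 0.997, 0.997 and 0.992). These points share the 2 groups, and 336 genes had an r over 0.9. Ctdsp2 fell from 607 ± 39.2 to 326 ± 24.8 and Selenot from 1054 ± 21.4 to 782 ± 39.3, while Mis18a did not pass (-0.25, limma adjusted p = 0.10).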

How the data were processed

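Affymetrix 1-colour arrays of 6 samples (3 control, 3 IGF-1) were used. The deposited values are linear intensities for which the submitters' processing notes name MAS5 and GCOS as the authors' tools. Program versions, scaling target and scan dates are not named in those sources. Equal trimmed means show that arrays were scaled to 1 level, which takes total output as equal between groups.

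Of 22690 probe sets 64 controls were left out. The platform annotation gave 1 symbol to 20380 and several to 691, and left 1555 unlisted. Gene IDs of all 20 member probe sets matched RefSeq (GRCm38.p6), the source of promoter sequences. Signals were taken as log2 after adding 15.57 (their 25th percentile) and fitted with limma 3.58.1 in R 4.3.3 (lmFit, eBayes with trend, two-sided), over the 11313 probe sets above the median mean signal of 53.61. Differences on this scale understate dim changes. The fit was also run on data simulated from its own fitted variances, without shifts between arrays, so that check does not bear on the scaling.

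Members and lists were chosen with earlier results of these data known, and 1 of the lists and 1 further gene are not reported here. Named were all member probe sets, up to 5 called genes with the largest difference per pathway list, 8 fixed genes, and the 3 genes nearest in pattern to the member with the smallest p. No depth applies to arrays, and their number limits precision. Tables and plots used Python 3.11.15 (pandas 2.3.3, numpy 2.4.6, matplotlib 3.10.9).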

Additional observations from a re-analysis of the deposited data

How the results depend on the processing

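The counts of member calls (0 higher, 3 lower) were the same under both other pseudocounts, the 70th percentile filter, quantile normalization, median centring, no trend, a robust trend, array weights, the replicate block (3 lower) and without _x_at and _s_at probe sets. Without a filter 1 was lower, and with scaling to the hybridization controls 1 was higher and 0 lower. With 1 array left out 0 were higher and 1 to 2 lower. All tested probe sets called were 448 higher and 498 lower without a filter, which tests more probe sets, and 2740 and 246 with scaling to the hybridization controls, and 406 to 659 higher and 491 to 792 lower with 1 array left out. Pathway genes called higher were 16 with that scaling and 4 to 7 with 1 array left out. Signs turned under that scaling for Jak1 1433803_at (0.0038) and 1433804_at (0.15), Tyk2 (0.19), Stat3 1424272_at (0.0915), 1426587_a_at (0.0424) and 1460700_at (0.11), Stat5b 1422103_a_at (0.16), Socs2 1449109_at (0.0882), Socs3 1416576_at (0.0642), Mcl1 (0.0906) and Bcl2l1 (0.13), all of them below the shifted median of 0.25. They also turned with 1 array left out for Jak1 1433804_at (-0.2371 to 0.042), Stat3 1424272_at (-0.3481 to 0.1585), Stat5a 1450259_a_at (-0.0346 to 0.1334), Il6ra (-0.0599 to 0.2464) and Socs1 (-0.2935 to 0.3314, below the filter). The tested ones passed in none of these fits. The causes were not tested. Replicate numbers are shared by the groups, and same-numbered deviations from the group means correlated at 0.12, -0.03 and 0.13. Pairs of unlike number ran from -0.15 to 0.03. These values do not settle whether arrays were paired, and the main fit took them as unpaired. With the replicate block 754 probe sets were higher and 978 lower, and among members no call changed. Signals near the floor limit Socs1, Socs2 and Socs3, for which 6 of 6 probe sets lay below the filter. The pseudocount also damps their shift under scaling to the hybridization controls, so their place below the shifted median says little.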

Other observations

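Ratios of probe sets within an array do not depend on how arrays were scaled. They were formed after the values were seen and are given as values, without a test. The log2 ratio of Jak2 1421066_at to Tyk2 was 0.14, 0.37 and 0.25 on control arrays and -0.35, -0.15 and -0.21 on IGF-1 arrays. That of Jak1 1433805_at to Tyk2 was 1.15, 1.46 and 1.13 against 0.36, 0.87 and 1.02. Both were lower on all 3 IGF-1 arrays, as was that of Jak2 1421065_at (-0.20, 0.23 and 0.19 against -0.24, -0.72 and -0.39). The groups overlapped for the other Jak1 probe sets, 1433803_at (0.15, 0.28 and 0.41 against -0.03, -0.02 and 0.30) and 1433804_at (-1.81, -1.80 and -2.32 against -1.63, -2.26 and -2.07). The log2 ratio of Cish to Jak2 1421066_at went from a mean of -0.82 ± 0.10 (SD, n = 3) to 0.02 ± 0.16, and that of Stat5b 1422103_a_at to Stat5a 1421469_a_at from 0.95 ± 0.09 to 0.77 ± 0.09, with groups apart in both.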
